A study of Mus musculus with 10 samples.

Results

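The 10 genes described here encode the mouse MHC class I molecule and part of the machinery that loads it: the classical heavy chains H2-K1 and H2-D1, the non-classical heavy chains H2-Q4, H2-Q7, H2-T22, H2-T23 and H2-M3, the light chain B2m, and the loading genes Tap1 and Tapbp. They were chosen by symbol from the 49671 gene IDs of a table of read counts, with the result of the diet comparison in view. The differences between the diets are therefore given as a description: no p-value is printed for these 10 genes, and how many passed the threshold of the fit over all genes is a count from which nothing is read. RNA had been sequenced from TH2 cultures, the helper T cells known for IL-4, IL-5 and IL-13, grown from naive CD4+ T cells and taken at day 5 of polarization. All mice were C57BL/6 with the genotype label WT, and second-generation offspring were used, per the labels' protocols. The 7 deficient libraries came from mice reared away from UV light on a diet without vitamin D metabolites. The 3 control libraries came from mice on the regular diet, whose vitamin D3 content is given as 400 IU per kg. Batch 1, a label of the submitters, held 5 deficient and 2 control libraries, and batch 2 held 2 deficient (libraries 6 and 7) and 1 control (library 3). The labels do not tie libraries to separate mice, so the p-values measure the spread between these libraries, which may be technical.

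A class I heavy chain folds around a short peptide and pairs with beta-2-microglobulin, the product of B2m, before it leaves the endoplasmic reticulum. Peptides cut by the proteasome in the cytosol are pumped in by the TAP transporter, of which Tap1 encodes one subunit, and tapasin, the product of Tapbp, holds the empty heavy chain at the transporter until a peptide fits. Classical chains show peptides to CD8+ T cells and are made by nearly every cell, lymphocytes included, whereas non-classical chains are less variable and serve natural killer, gamma delta or other specialised lymphocytes. Transcription of the heavy chains and of B2m is known to run through a shared promoter block with a kappaB site, an interferon-stimulated response element (ISRE) and an SXY module, whose CRE-like and CCAAT-like parts are bound by RFX, CREB/ATF and NF-Y factors and by the coactivator NLRC5.

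The promoter blocks are shown because 6 of the 7 heavy chains and B2m hold every motif searched somewhere in a window around the start. Positions differ: in H2-Q4 the first CRE core match follows the first CCAAT match, and in H2-K1, H2-D1 and H2-Q7 it comes before. Any relation to the difference between the diets was not tested. Tap1 and Tapbp have no ISRE match and are not shown. Each line below is a stretch of 120 bases, 5′ to 3′ on the gene's strand, from RefSeq on GRCm38.p6. Capitals mark matches on either strand to an ISRE, searched as TTTCNNTTC or TTTCNNTTTC, which cannot both start at the same base. They also mark the CRE core, searched as TGACG. The CCAAT box was searched as the letters of its name, and the kappaB consensus is given by name alone. Matches outside a stretch are not printed, and the CRE core of H2-T22 is one of these.
H2-K1, chr17:34000344-34000463, minus strand: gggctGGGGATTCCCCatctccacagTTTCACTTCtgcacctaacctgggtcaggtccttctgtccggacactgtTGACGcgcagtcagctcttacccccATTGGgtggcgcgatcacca
H2-D1, chr17:35262918-35263037, plus strand: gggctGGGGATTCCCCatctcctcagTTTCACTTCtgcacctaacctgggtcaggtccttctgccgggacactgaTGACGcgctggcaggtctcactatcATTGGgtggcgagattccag
H2-Q4, chr17:35379438-35379557, plus strand: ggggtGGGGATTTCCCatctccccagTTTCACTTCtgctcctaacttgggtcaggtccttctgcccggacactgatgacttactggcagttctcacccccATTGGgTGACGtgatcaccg
H2-Q7, chr17:35439016-35439135, plus strand: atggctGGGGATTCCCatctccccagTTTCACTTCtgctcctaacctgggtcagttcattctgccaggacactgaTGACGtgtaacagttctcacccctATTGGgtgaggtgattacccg
H2-T22, chr17:36042840-36042959, minus strand: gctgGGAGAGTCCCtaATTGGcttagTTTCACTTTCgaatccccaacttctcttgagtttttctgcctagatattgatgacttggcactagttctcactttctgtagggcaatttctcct
H2-T23, chr17:36032732-36032851, minus strand: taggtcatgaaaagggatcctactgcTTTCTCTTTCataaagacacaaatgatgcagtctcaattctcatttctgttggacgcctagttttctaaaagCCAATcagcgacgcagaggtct
H2-M3, chr17:37270107-37270226, plus strand: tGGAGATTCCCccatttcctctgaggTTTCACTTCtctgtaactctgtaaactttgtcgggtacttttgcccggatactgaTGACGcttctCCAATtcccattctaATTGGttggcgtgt
B2m, chr2:122147522-122147641, plus strand: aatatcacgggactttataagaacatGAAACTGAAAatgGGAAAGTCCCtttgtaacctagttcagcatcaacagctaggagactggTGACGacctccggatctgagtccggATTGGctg

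The motif letters were chosen with these promoters in view, and a match is a description of letters, not of a bound site. Windows ran from 250 bases before to 50 bases after the RefSeq start, and those of chromosome 18 were left out of every count. An ISRE in either form stood in 7 of the 7 heavy chains and in 8 of the 10 members. It stood in 10.4% of all 32851 mouse promoter windows searched. The CRE core stood in 6 of the 7 heavy chains and 8 of the members, against 20.8% of all windows. CCAAT stood in all 10 members and in 37.4% of all windows, and the kappaB consensus in 6 heavy chains, 7 members and 4.51% of all windows. The short ISRE form alone stood in 7.52% of all windows and the long form in 3.44%. All of these motifs together stood in 7 members and in 18 windows of all (0.0548%), which belong to 17 genes. Among the 10 genes of these that are not members, H2-M2 is another class I-like heavy chain. In H2-M3 a further CCAAT match overlaps the kappaB match, and its letters run past the printed stretch. H2-T23 lacked the CRE core and kappaB letters, Tap1 had the CRE core and CCAAT letters, and Tapbp had CCAAT alone. Tap1 is known to share its start region with its divergent neighbour Psmb9.

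Over aligned stretches H2-K1 was identical to H2-D1 in 87.6% of columns and to H2-Q4 in 85.8%. It matched H2-Q7 in 81.1%, H2-M3 in 63.1%, H2-T22 in 57.6% and H2-T23 in 50.4%. H2-Q4 and H2-Q7 were identical in 86.1% of columns. For H2-D1 the RefSeq start lay 364 bases and for H2-T23 154 bases from the start that GENCODE annotates, so the windows of these 2 genes depend on the annotation used.

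**Figure D1:**
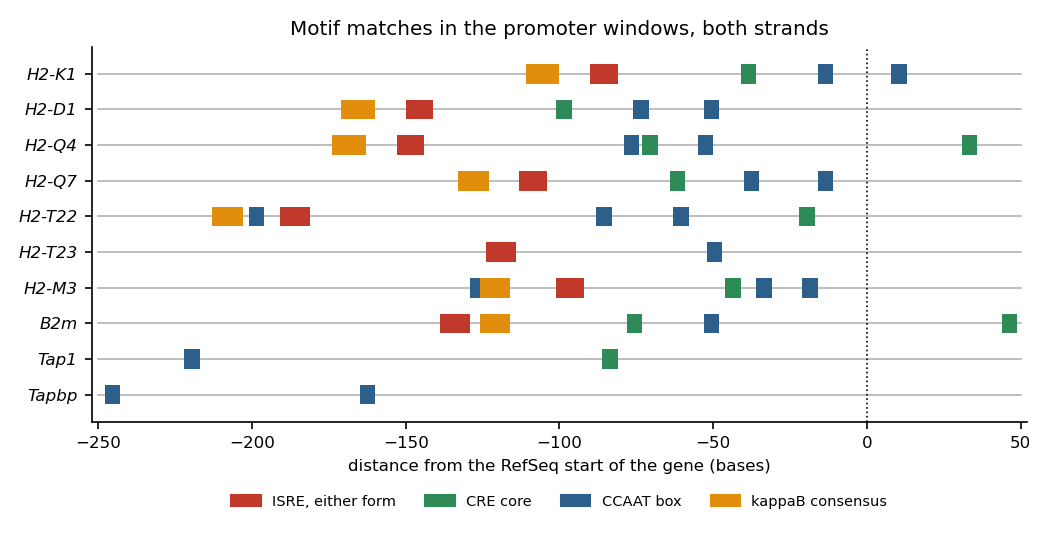
Motif matches in the promoter windows of the 10 members. The horizontal axis is the distance from the RefSeq start in bases, each row is a gene, and coloured boxes are matches on either strand. The 6 heavy chains other than H2-T23 and B2m hold a kappaB match close to an ISRE match, and Tap1 and Tapbp hold neither.

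Several facts about the libraries bear on everything below. Totals ran from 7029207 to 13433276 counts in the deficient libraries and from 5800698 to 6462146 counts in the controls. By edgeR's quasi-likelihood test with diet and batch as terms, 29.4% of the 13699 genes that entered it were called higher in deficient cells and 28.6% lower (Benjamini-Hochberg adjusted p below 0.05). The CD4 T and TH2 markers summed to 1887 to 2094 CPM (library counts scaled to 1000000) in deficient libraries and 2447 to 2509 CPM in controls, with 6 of 14 higher in the deficient mean. The CD8 T and cytotoxic markers summed to 676 to 1928 CPM against 97.3 to 200 CPM (10 of 11 higher), and the B cell markers to 57.8 to 340 CPM against 16.4 to 108 CPM (9 of 10 higher). The interferon list, which holds response genes and the cytokine gene Ifng itself, summed to 221 to 788 CPM against 131 to 137 CPM, with 11 of 12 higher. Ifng stood at 36.8 to 198 CPM in deficient libraries against 2.24 to 7.58 CPM in controls. Most of the rest was Gbp2 (48.8 to 242 against 44.1 to 45.0 CPM) and Igtp (115 to 271 against 66.2 to 69.5 CPM). Deficient libraries 5, 6 and 7, the 3 highest for 8 members, had the top sums of several lists: 788, 743 and 695 CPM of the interferon list, 1928, 1755 and 1467 CPM of the CD8 list, and 313, 303 and 340 CPM of the B cell list. The other deficient libraries reached at most 328, 1030 and 85.8 CPM of these lists. Control library 3, the highest control for 8 members, had B cell markers at 108 CPM, against 19.3 and 16.4 CPM in control libraries 1 and 2, and CD8 markers at 200 CPM, against 106 and 97.3 CPM. Dendritic cell markers summed to 30.7 to 45.2 CPM against 10.9 to 15.9 CPM, and macrophage markers to 5.53 to 8.42 CPM against 15.7 to 17.8 CPM. Most of the dendritic sum was Batf3 (17.8 to 25.1 against 4.65 to 7.70 CPM) and Zbtb46 (10.4 to 16.0 against 4.14 to 6.34 CPM). Itgax and Flt3 of that list were not called between the diets. Most of the macrophage sum was Cd68 (3.27 to 5.10 against 13.2 to 14.7 CPM). Of the dendritic list 4 of 8 were higher, while Xcr1, Clec9a, Siglech and Cd209a stayed below 1 CPM in every library. Of the macrophage list 4 of 7 were higher, while Fcgr1, Csf1r, Cd14 and Lyz2 stayed below 1 CPM in every library. The MHC class II list summed to 184 to 190 CPM in deficient libraries 5 to 7, to 52.6 to 71.3 CPM in the other deficient libraries and to 30.7 to 57.1 CPM in controls, with 4 of 5 higher. The part of these cell types in the class I levels was not tested, and in bulk RNA more cells of a type and more RNA per cell cannot be told apart.

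A few other genes are given here because their values bear on the strain label, and were picked after those values were seen. BC023719 (chr17:36111426-36117121) stood at 14.2 to 19.5 CPM in deficient libraries and had 0 counts in the controls. The class II gene H2-Ea-ps, which C57BL/6 mice are known not to transcribe, had 0 counts in all 7 deficient libraries, against 0, 1 and 20 counts in control libraries 1, 2 and 3. H2-Eb1, its partner chain, had 167 to 839 counts in deficient libraries and 12, 17 and 58 counts in the controls. Outside the MHC, Trim12a on chromosome 7 stood at 27.0 to 38.2 CPM in deficient libraries and had 0 counts in the controls, and Rprl3 on chromosome 8 had 1 count in the deficient libraries and 3975 in the controls. A difference in genetic background would affect genes on any chromosome, B2m and the Klra genes included, and one in MHC haplotype would change how reads of H2-K1, H2-D1 and their relatives align to the C57BL/6J reference. With the groups as they are, neither can be told apart from the diet.

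The classical chains were the most abundant heavy chains in both groups, per kilobase as well as in CPM, and both were higher in deficient cells. H2-K1 (ENSMUSG00000061232, chr17:33996017-34000347) stood at 1632 CPM in the lowest, 1729 in the median and 1983 in the highest deficient library, against 292, 308 and 323 CPM in control libraries 1, 2 and 3. H2-D1 (ENSMUSG00000073411, chr17:35262730-35267499) stood at 1946, 1973 and 2396 CPM in the lowest, median and highest deficient library, against 523, 567 and 591 CPM in the controls. For both genes every deficient library was above every control, and deficient libraries 5, 6 and 7 were the 3 highest. The means were 1792 ± 141 CPM (SD, n = 7) against 308 ± 15.7 CPM (SD, n = 3) for H2-K1, a ratio of 5.83. For H2-D1 they were 2105 ± 197 CPM (SD, n = 7) against 560 ± 34.7 CPM (SD, n = 3), a ratio of 3.76. The fitted log2 fold changes, deficient minus control, were 2.46 (SE 0.0642) for H2-K1 and 1.83 (SE 0.0702) for H2-D1. In H2-K1, 9.63% of the 50-base stretches of its transcripts also occur in another gene, and in H2-D1 12.8%, chiefly in H2-Q and other class I genes.

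The non-classical chains ranged from the widest difference of all members to none that could be called. H2-Q7, which encodes the Qa-2 antigen, a chain that can be tethered to the membrane by a lipid anchor, had the widest. H2-Q7 (ENSMUSG00000060550, chr17:35439155-35443773) stood at 75.3, 87.9 and 113 CPM in the lowest, median and highest deficient library, against 5.52, 5.29 and 6.19 CPM in the controls. The gap between the groups was wider than the range within either, and the smallest count behind it was 529 in a deficient library and 32 in a control. The mean ratio was 16.9 and the log2 fold change 4.0 (SE 0.147). Of its 50-base stretches 26.5% also occur in other genes, with H2-Q10 (14%), H2-Q5 (8.74%) and H2-Q6 (6.31%) as the main partners.

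H2-Q4 (ENSMUSG00000035929, chr17:35379617-35385290), a neighbouring chain of the Q region, stood at 184, 197 and 215 CPM in the lowest, median and highest deficient library, against 72.7, 76.8 and 91.0 CPM in the controls. The groups did not overlap, and relative to their mean, 197 ± 11 CPM (SD, n = 7), the deficient libraries varied less than for any other member. Its mean ratio was 2.45 and its log2 fold change 1.22 (SE 0.0605). Of the 50-base stretches of H2-Q4, 36.4% also occur in other genes, chiefly Gm11131 (15.3%) and H2-Q6 (9.68%). The antisense gene Gm11131 overlaps H2-Q4 over 676 bases and averaged 9.24 CPM in deficient libraries and 3.29 CPM in controls. The sources used here do not say whether counting used strand, and reads of the 2 genes may be mixed.

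H2-T22 (ENSMUSG00000056116, chr17:36037128-36042747), a chain that binds no peptide and is recognised by gamma delta T cells, stood at 73.6, 83.2 and 116 CPM in the lowest, median and highest deficient library, against 55.5, 56.4 and 65.6 CPM in the controls. The groups did not overlap, but deficient libraries 1 to 4, at 73.6 to 83.2 CPM, lay nearer to the controls than to libraries 5 to 7, at 106 to 116 CPM. The mean ratio was 1.57 and the log2 fold change 0.57 (SE 0.122). More than for any other member, its sequence is shared: 53.5% of its 50-base stretches, read on either strand, occur in another annotated gene. H2-T10 holds 31.2% of all its stretches, the antisense gene A930015D03Rik 26.5% and BC023719 7.84%. A930015D03Rik overlaps H2-T22 itself over 1308 bases, so its part includes the same stretch of genome and not only a related gene elsewhere.

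H2-T23 (ENSMUSG00000067212, chr17:36029773-36032855), which shows leader peptides of other class I chains to the CD94 and NKG2 receptors, stood at 146, 163 and 226 CPM in the lowest, median and highest deficient library, against 198, 202 and 205 CPM in the controls. The groups overlapped: deficient libraries 1 to 4 were below every control, 2 of the others were above every control, and library 7 lay between. The mean ratio was 0.905 and the log2 fold change -0.23 (SE 0.126). Without deficient libraries 5 to 7 the log2 fold change was -0.45, and in batch 2 alone it was -0.00. A930015D03Rik, antisense to the whole gene, averaged 8.36 CPM in deficient libraries and 7.08 CPM in controls. Of the 50-base stretches of H2-T23, 14.5% also occur in other genes.

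H2-M3 (ENSMUSG00000016206, chr17:37270220-37274484), which presents N-formylated peptides of bacteria and mitochondria, stood at 40.3, 46.6 and 48.6 CPM in the lowest, median and highest deficient library, against 38.4, 37.0 and 36.4 CPM in the controls. In CPM on column totals every deficient library was above every control, by a margin of less than 2 CPM at the closest. The closest were deficient library 3 and control library 1. Their scaling factors in the fit (TMM) were 1.014 and 0.942, so this separation depends on the scaling. The mean ratio was 1.21 and the log2 fold change 0.19 (SE 0.0792). Only 0.576% of its stretches occur in another gene.

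B2m (ENSMUSG00000060802, chr2:122147686-122153083), the light chain shared by all these heavy chains and the one member outside chromosome 17, stood at 1304, 1678 and 2051 CPM in the lowest, median and highest deficient library, against 591, 581 and 662 CPM in the controls. The groups did not overlap, and deficient libraries 5, 6 and 7 were again the 3 highest. The mean ratio was 2.83 and the log2 fold change 1.42 (SE 0.114). None of its 50-base stretches occur in another gene, although Patl2, at 0.0433 CPM in deficient libraries and 0.105 CPM in controls, overlaps it on the other strand.

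Among the loading genes, Tap1 and Tapbp differed in direction. Tap1 (ENSMUSG00000037321, chr17:34187553-34197225) stood at 205, 226 and 269 CPM in the lowest, median and highest deficient library, against 98.3, 101 and 106 CPM in the controls. Its groups did not overlap, with a mean ratio of 2.33 and a log2 fold change of 1.14 (SE 0.0718). Tapbp (ENSMUSG00000024308, chr17:33915899-33929292) stood at 71.4, 81.1 and 114 CPM in the lowest, median and highest deficient library, against 99.1, 95.6 and 95.9 CPM in the controls. The groups overlapped: 5 deficient libraries were below every control, library 7 was above every control, and library 6 lay between. The mean ratio was 0.900 and the log2 fold change -0.24 (SE 0.0935). Batch 1 alone gave -0.38 for Tapbp, batch 2 alone 0.08, and the fit without deficient libraries 5 to 7 gave -0.43. Zbtb22 overlaps Tapbp on the same strand over 3422 bases and averaged 31.7 CPM in deficient libraries and 19.7 CPM in controls. Of the 50-base stretches of Tapbp, 23.2% also occur in other genes, chiefly Gm19412 (20.3%), and of those of Tap1 3.33%. Gm19412 is antisense to Tapbp, overlaps it over 1207 bases and averaged 0.168 CPM in deficient libraries and 0.206 CPM in controls.

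**Figure D2:**
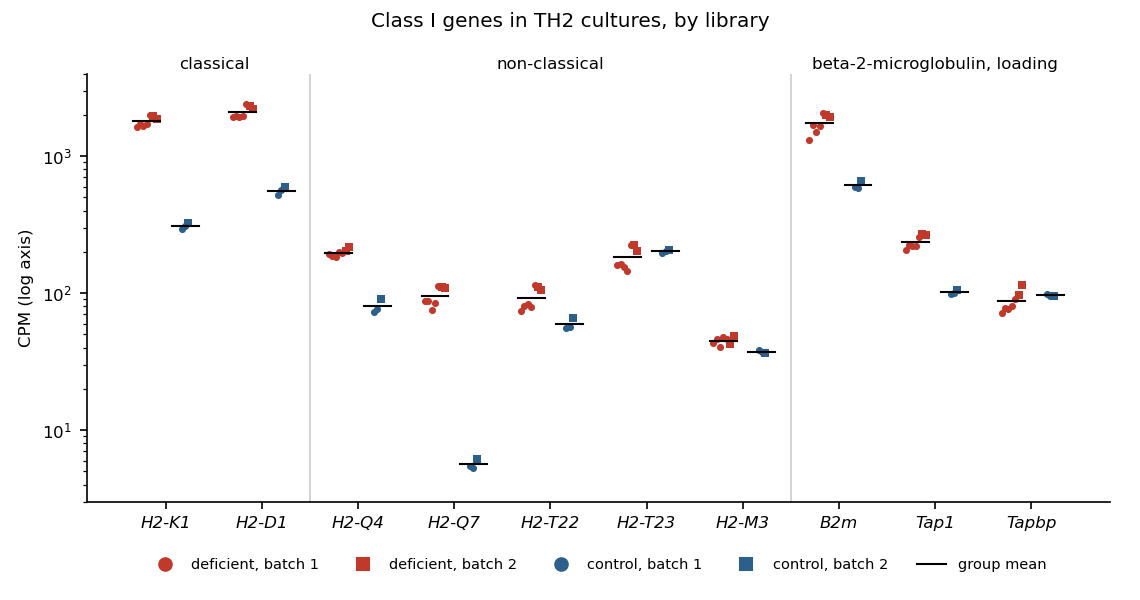
Levels of the 10 members in every library. The vertical axis is CPM on a log scale, red marks deficient and blue control libraries, circles are batch 1 and squares batch 2, and black lines are group means. The groups overlap for H2-T23 and Tapbp. How many of all genes have groups that are apart was not counted, so nothing is read from the other members.

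By class, the median log2 fold change was 2.15 over the 2 classical chains, 0.57 over the 5 non-classical chains and 1.14 over B2m, Tap1 and Tapbp. It was 1.18 over all 10 members and 0.02 over all 13699 genes tested. All 10 members passed the filter on low counts, so none was left out of these medians. At the same threshold 7 members were called higher (H2-K1, H2-D1, H2-Q4, H2-Q7, H2-T22, B2m and Tap1), where 29.4% of all genes were, and 1 was called lower (Tapbp), where 28.6% were. H2-T23 and H2-M3 were not called. The values nearest the threshold were those of Tapbp, just past it, and of H2-M3, just short of it, and the call of each changed with the settings: H2-M3 was called in 8 of 22 alternatives and Tapbp in 9 of 22.

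**Figure D3:**
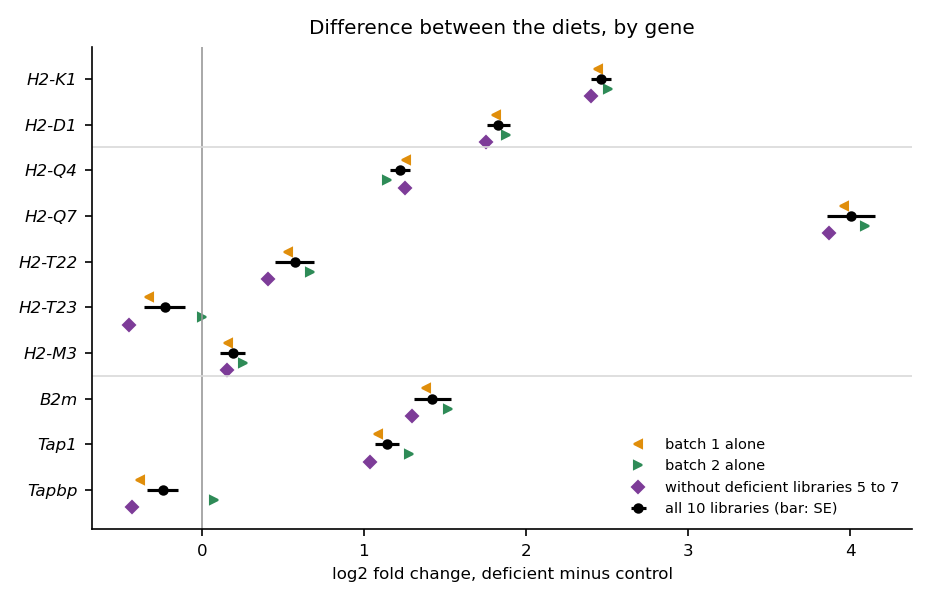
Difference between the diets for each member. The horizontal axis is the log2 fold change, deficient minus control; black points with bars are the fit to all 10 libraries with its SE, and coloured symbols are the fits within each batch and without deficient libraries 5 to 7. H2-Q7 is farthest to the right at 4.0, and H2-T23 and Tapbp lie near 0 with symbols to either side of the full fit.

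Within each batch the order of H2-Q7, H2-K1, H2-D1 and B2m was kept, and Tap1 and H2-Q4 changed places. H2-K1 had a log2 fold change of 2.45 in batch 1 and 2.51 in batch 2, and H2-Q7 had 3.96 and 4.09. H2-D1 had 1.81 in batch 1 and 1.88 in batch 2, B2m 1.39 and 1.52, and H2-Q4 1.26 and 1.15. Tap1 had 1.09 and 1.28, and H2-T22 0.53 and 0.67. Batch 2 has a single control library, which is there assumed to vary like the deficient ones. Leaving out deficient libraries 5 to 7 lowered the log2 fold change most in H2-T23 and Tapbp, as given above, and in H2-T22, which came to 0.41. B2m then had 1.29, H2-Q7 3.87 and H2-D1 1.75.

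The batch term and the product of diet and batch played no part in the choice of members, so they were tested. No gene was called for batch by edgeR (0.0% of 13699), with 1038 genes at an unadjusted p below 0.05, and DESeq2 and limma-voom also called 0 (915 and 1319 unadjusted). Of the 10 members 0 were called for batch, while 8 had an unadjusted p below 0.05 with edgeR, 6 with DESeq2 and 7 with limma-voom, and 9 were higher in batch 2. H2-Q4 was higher in batch 2 by 0.18 (SE 0.0557) on the log2 scale and Tap1 by 0.20 (SE 0.0664), each with an edgeR adjusted p of 0.629. H2-T22 was higher by 0.30 (SE 0.114) and H2-Q7 by 0.28 (SE 0.107), with the same adjusted p in edgeR. H2-M3 was the exception, at -0.01 (SE 0.0762). Control library 3, the batch 2 control, was the highest control for 8 of 10 members, all but H2-M3 and Tapbp. Without deficient library 5, which carries the label of batch 1 and is with libraries 6 and 7 among the 3 highest deficient libraries for 8 members, edgeR called 6 of the 10 members for batch, and 692 (5.29%) of the 13077 genes tested.

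The product of diet and batch was called for no gene by edgeR (0.0% of 13699), with 565 at an unadjusted p below 0.05, nor by DESeq2 or limma-voom (277 and 375 unadjusted). Tapbp was the member with the widest product term, 0.46 (SE 0.170, edgeR adjusted p = 0.947), and the only member with an unadjusted p below 0.05 in edgeR. A difference in the diet effect between batches was thus not detectable for any member with 3 controls.

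Between genes, levels were compared as CPM per kilobase of annotated exon. In deficient cells B2m was highest at 2014 ± 325 CPM per kb (SD, n = 7), followed by H2-D1 at 816 and H2-K1 at 610 CPM per kb. H2-Q4 (75.7), H2-T23 (63.1), Tap1 (43.4), H2-M3 (31.4), H2-T22 (27.2), Tapbp (24.03) and H2-Q7 (22.4 CPM per kb) followed. Neighbours whose deficient libraries overlapped were H2-Q4 and H2-T23, H2-M3 and H2-T22, H2-T22 and Tapbp, and Tapbp and H2-Q7. In control cells the order began the same way, with B2m at 711 ± 51.3 CPM per kb (SD, n = 3), H2-D1 at 217 and H2-K1 at 105 CPM per kb. H2-T23 (69.8) then stood above H2-Q4 (30.9), followed by Tapbp (26.7), H2-M3 (25.9), Tap1 (18.6), H2-T22 (17.3) and H2-Q7 (1.33 CPM per kb). The controls overlapped between Tapbp and H2-M3 and between Tap1 and H2-T22. H2-Q7 was thus the lowest member in both groups, while Tap1 ranked above H2-M3 and Tapbp in deficient cells and below both in controls.

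The makeup of class I RNA within a library differed between the diets. The classical chains summed to 3578 to 4379 CPM in deficient libraries and 814 to 914 CPM in controls. The 5 non-classical chains summed to 538 to 699 CPM in deficient libraries and 370 to 404 CPM in controls. The classical share of heavy chain counts was 85.7% to 87.0% in deficient libraries and 68.8% to 69.9% in controls. H2-K1 stood at 0.827 to 0.883 times H2-D1 in deficient libraries and at 0.544 to 0.558 times in controls. In both ratios the groups were apart by more than their own ranges.

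Ratios to closely related genes, which were not members, differed by more. H2-Q7 stood at 1.40 to 1.95 times the neighbouring H2-Q6 in deficient libraries and at 0.151 to 0.212 times in controls. H2-K1 stood at 199 to 254 times its neighbour H2-K2 in deficient libraries and at 11.1 to 13.5 times in controls. H2-T22 went the other way against H2-T10, at 2.92 to 3.96 times in deficient libraries and 8.65 to 11 times in controls. H2-Q6 holds 6.31% of the 50-base stretches of H2-Q7, H2-T10 holds 31.2% of those of H2-T22 and H2-K2 holds 0.434% of those of H2-K1. The part of shared reads in these ratios was not tested.

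Sums and ratios to the light chain and among the loading genes also differed, although 4 of the 7 heavy chains, H2-Q4, H2-T22, H2-T23 and H2-M3, had a smaller ratio between the diets than B2m. The 7 heavy chains together stood at 2.44 to 3.17 times B2m in deficient libraries and at 1.99 to 2.16 times in controls. Per kilobase, H2-K1 and H2-D1 together stood at 0.659 to 0.864 times B2m in deficient libraries and at 0.440 to 0.481 times in controls. Tap1 stood at 1.44 to 1.67 times Tap2, the other subunit of the transporter, in deficient libraries and at 0.981 to 1.12 times in controls. Tap1 stood at 2.34 to 2.90 times Tapbp in deficient libraries and at 0.991 to 1.11 times in controls.

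**Figure D4:**
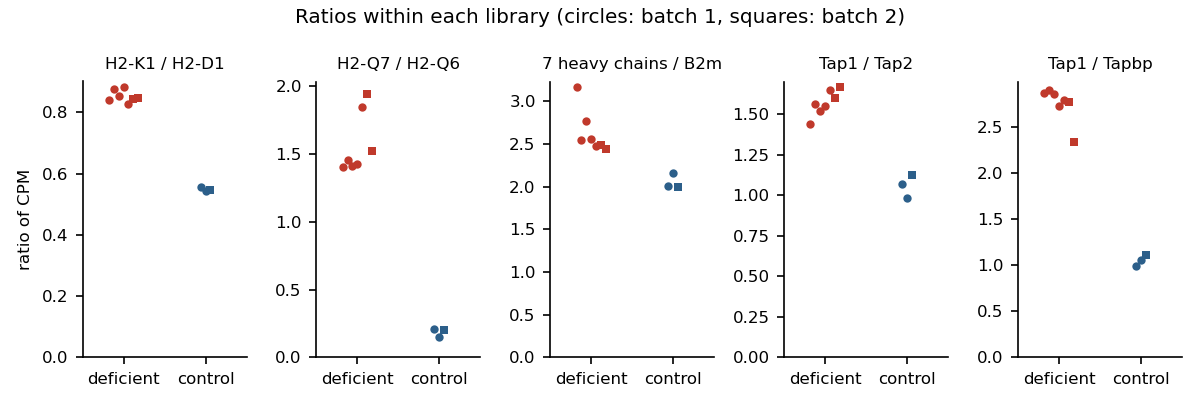
Ratios of CPM within each library. Each panel shows 1 ratio with deficient libraries (red) left of controls (blue), circles for batch 1 and squares for batch 2. The groups are apart in all 5 panels, and 1 deficient library of batch 2 is low, at 2.34, in the ratio of Tap1 to Tapbp.

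The other genes of the class I pathway moved in both directions, and the lists below were chosen with earlier results of these data known. Counts for each list stand beside 29.4% of all genes called higher and 28.6% called lower, and a median of 0.02 over all genes. All adjusted p-values for these genes are from edgeR.

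Of 11 tested genes of class I loading and folding in the endoplasmic reticulum, 4 rose and 5 fell, with a median of -0.13. Tapbpl, a tapasin-related peptide editor, rose by 0.99 (SE 0.0736, adjusted p = 2.73e-08), and Erap1, the aminopeptidase that trims peptides to length, by 0.75 (SE 0.0733, adjusted p = 5.00e-07). Tap2, the partner of Tap1, rose by 0.57 (SE 0.0681, adjusted p = 4.50e-06), so both transporter subunits were higher, in unequal measure. Sec61b and Sec61a1, parts of the translocation channel, fell by 0.63 and 0.50 (adjusted p = 7.10e-07 and 1.06e-06), and the chaperone Calr fell by 0.40 (adjusted p = 0.00101). Canx, the chaperone that receives the new heavy chain, and Pdia3, the oxidoreductase of the loading complex, were not called, at -0.13 (SE 0.0529) and 0.05 (SE 0.0644).

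Of 9 genes of the immunoproteasome, its constitutive counterparts and the proteasome activators, 8 rose and 1 fell, with a median of 0.36. Psmb5, a constitutive catalytic subunit, rose most in this list, with 60.0 ± 4.60 CPM in deficient cells (SD, n = 7) and 15.3 CPM in controls (range 13.6 to 16.4, n = 3; log2 1.88, adjusted p = 8.64e-10). Psmb10, an immunoproteasome subunit, rose by 1.12 (adjusted p = 1.54e-06), Psme3 by 1.11 (adjusted p = 5.77e-08) and the activator gene Psme2 by 1.00 (adjusted p = 6.05e-08). Psme1, whose product assembles with that of Psme2, fell by 0.40 (adjusted p = 0.000305). The other immunoproteasome subunits, Psmb8 and Psmb9, rose by 0.22 and 0.30 (adjusted p = 0.0154 and 0.00764). Neither was called in batch 1 alone, without control library 3 or without deficient libraries 5 to 7. Psmb9 overlaps Tap1 by 212 bases on the opposite strand.

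Of 28 regulators of class I transcription, 10 rose and 12 fell, with a median of 0.15. Nlrc5, the coactivator of class I promoters, rose most of these, with 147 ± 20.3 CPM in deficient cells (SD, n = 7) and 25.9 ± 4.24 CPM in controls (SD, n = 3; log2 2.44, SE 0.0983, adjusted p = 3.86e-11). Over the 10 members the log2 fold change ran from -0.24 to 4.0, and any relation to Nlrc5 was not tested. Eed, of the Polycomb repressive complex, rose by 0.85 (adjusted p = 2.91e-08) while its partner Ezh2 fell by 0.69 (adjusted p = 1.16e-06). The interferon signalling genes were divided: Irf1 rose by 1.21 (adjusted p = 0.0120), whereas Ifnar1 fell by 0.81 (adjusted p = 8.46e-08), Jak2 by 0.75 (adjusted p = 2.03e-07) and Ifngr2 by 1.06 (adjusted p = 6.69e-07). The call of Irf1 was lost in batch 1 alone and without control library 3. Among the factors that bind the promoter module, Rfxank fell by 1.21 (adjusted p = 4.17e-06), Nfyb rose by 0.60 (adjusted p = 2.13e-05), and Creb1 (0.19) and Rfx5 (0.22) were not called.

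Of 27 other class I-like heavy chains listed, 23 were found in the table by symbol and 13 were tested; 4 rose and 5 fell, with a median of -0.25. H2-T10, the close relative of H2-T22, rose by 2.06 (SE 0.124, adjusted p = 2.85e-09), and H2-Q6 by 0.90 (SE 0.102, adjusted p = 2.45e-06). H2-K2 fell by 1.71 (SE 0.123, adjusted p = 1.99e-08). H2-T3, the thymus leukaemia antigen known as a ligand of CD8 alpha chains, had 552 counts in the 7 deficient libraries and 2 in the 3 controls, a ratio of 63.5 with a 95% counting interval of 17.5 to 526 after scaling to library totals. H2-Q2 fell by 1.75 (adjusted p = 3.71e-06), H2-Q5 by 0.75 (adjusted p = 0.000456) and H2-Q1 by 0.82 (adjusted p = 0.00392), the last lost in batch 1 alone and without control library 3. The list thus held falls beside the higher H2-Q4 and H2-Q7 in the same chromosomal block.

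Of 16 receptors that bind class I, 11 were tested; 10 rose and 0 fell, with a median of 3.90. These receptors mark CD8 T and natural killer cells. Cd8a, Cd8b1 and Klrd1 are also in the CD8 T and cytotoxic list, whose sums are given above for each group. No separate natural killer list was summed. Of the cytotoxic list, Ncr1 and Klrb1c are known natural killer markers, and neither was called. Ncr1 stood at 0.227 to 0.996 CPM in deficient libraries and 0.517 to 2.01 CPM in controls. Klrb1c stood at 0.235 to 1.88 CPM in deficient libraries and 0 to 0.774 CPM in controls. Klrd1, which encodes CD94, stood at 12.4 ± 4.46 CPM in deficient cells (SD, n = 7) and 0.793 ± 0.540 CPM in controls (SD, n = 3; log2 3.90, adjusted p = 2.52e-06). Klra7 had 1166 counts in deficient libraries and 6 in controls (log2 5.38, adjusted p = 1.70e-05). Klra1 had 167 counts in deficient libraries and 1 in the controls, a ratio of 38.4 with a 95% counting interval of 6.8 to 1530. Klra4 had 160 counts in deficient libraries and 0 in the controls; with 3 counts taken as the limit for the 3 controls together, it was at least 12.3-fold higher. Cd8a, at 5.26 to 54.3 CPM in deficient libraries and 0 to 1.55 CPM in controls, lost its call with DESeq2, in batch 1 alone and with any 1 control left out.

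Of 15 tested genes of class I trafficking and turnover, 5 rose and 4 fell, with a median of -0.02. Bcap31, an export receptor of class I, rose by 0.74 (adjusted p = 1.11e-06) and the small GTPase gene Arf6, of the recycling route, by 0.79 (adjusted p = 1.72e-06). Sec22b and Stx4a, which encode membrane fusion proteins, fell by 0.94 (adjusted p = 5.29e-08) and 1.03 (adjusted p = 1.48e-07).

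**Figure D5:**
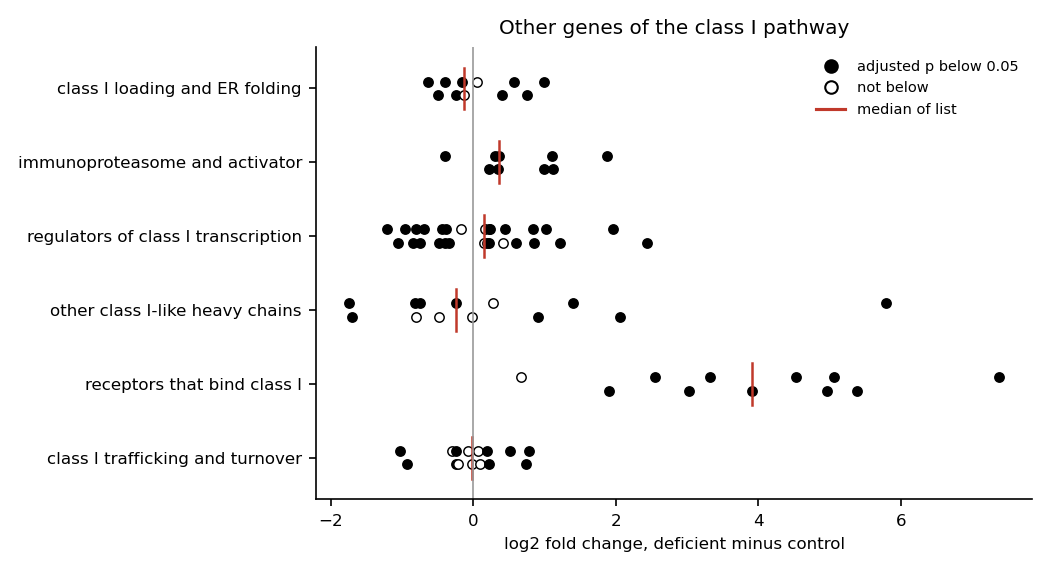
Log2 fold changes, deficient minus control, of the other class I pathway genes by list. Filled points passed an edgeR adjusted p below 0.05, open points did not, and red lines are list medians. The receptor list has a median of 3.90 and the other lists have medians between -0.25 and 0.36.

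The MHC region held genes that differed in either direction. Between the outermost members on chromosome 17 (chr17:33915899-37274484) 118 other genes were tested, of which 35 (29.7%) were higher and 41 (34.7%) lower, with a median of -0.05. These shares lie near the 29.4% and 28.6% of all genes. Of the 9 members in that interval, which were chosen with this contrast in view, 6 were called higher.

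The genes most like each class were sought among 9410 protein-coding genes, by the root mean square difference of log2 CPM centred over the 10 libraries. The likeness is a description, since the diets dominate each profile. To the classical chains these were Wars, a tryptophanyl-tRNA synthetase (0.0972), Dgkh, a diacylglycerol kinase (0.118), and Apobec3, an antiviral cytidine deaminase (0.120). Wars stood at 136 ± 10.11 CPM in deficient cells (SD, n = 7) and 27.5 ± 3.10 CPM in controls (SD, n = 3). To the non-classical mean they were Nedd4, a ubiquitin ligase (0.0692), Rrp12, a ribosome assembly factor (0.0822), and Psme2 (0.0917). To B2m, Tap1 and Tapbp they were Il21r, the receptor of IL-21 (0.0725), Erap1 (0.0749) and Parp11 (0.0780). Psme2 and Erap1 are the genes of these that also belong to the pathway lists.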

How the data were processed

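Total RNA from day 5 TH2 cultures was made into stranded libraries with a globin-depleting kit, per the labels' protocols. The authors deposited raw counts per Ensembl gene, and the submitters' processing notes name HTSeq 0.13.5, STAR 2.7.10a and the build GRCm38. Neither the strand setting nor the annotation is given in the sources used here. Of 49671 IDs, 49412 were matched to GENCODE M21, and the other 259 held 0.0226% of counts. CPM were computed on column totals.

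In R 4.3.3, edgeR 4.0.16 kept 13699 genes (filterByExpr, minimum count 10), scaled them by TMM and fitted diet and batch (glmQLFit, robust; glmQLFTest), with p-values Benjamini-Hochberg adjusted over all genes. The common coefficient of variation was 12.7%. Log2 fold changes are deficient minus control. The members and lists were chosen with earlier results of these data known. Named genes are all members, up to 4 called genes of smallest p per list, and 3 genes most like each class (mean of at least 5 CPM); other named list genes, and H2-Ea-ps, H2-Eb1 and BC023719, were chosen after their values were seen. Count ratios carry exact 95% intervals, which cover counting error only. Promoter windows are RefSeq's. Shared sequence was measured over GENCODE transcripts in 50-base stretches, read on either strand, so genes that overlap a member count as sharing. Replicate numbers follow accession order. Alternatives used DESeq2 1.42.0, limma 3.58.1, other scalings and filters, each batch alone and libraries left out.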

Additional observations from a re-analysis of the deposited data

Results flagged for a closer look

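In the ratio of Tap1 to Tapbp, 1 deficient library stood apart from the other 6. Deficient library 7 had a ratio of 2.34, while the other deficient libraries lay closer to the median of 2.79 and the controls between 0.991 and 1.11. Its gap to the nearest library was 0.692 of the group's range, above Dixon's 95% critical value for 7 libraries. Library 7 had the highest Tapbp level of all libraries, at 114 CPM, and Tap1 at 267 CPM, within the range of the other deficient libraries. The same check was made for 10 members and 13 ratios and sums, and chance sets apart about 1 in 20 groups.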

How the results depend on the processing

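The members were chosen with the diet contrast in view, so their calls over the alternatives are no sign of stability. Over 22 alternatives the log2 fold changes were 2.40 to 2.57 for H2-K1, 3.87 to 4.11 for H2-Q7 and 0.41 to 0.68 for H2-T22. The number of members called lower was 1, and 0 with upper quartile scaling, total count scaling, no filter, limma-voom, no batch term or batch 2 alone, 2 without deficient libraries 5 to 7, and 0 to 2 with single libraries left out. Tapbp reversed to 0.0752 in batch 2 alone, with 1 control there. Members called for batch were 2 with no filter, where 0.521% of all genes were, and 0 to 6 with single libraries left out, the 6 without deficient library 5, where 5.29% of all genes were. The causes were not tested. Total count scaling moved the median of all genes to 0.10 and no filter to 0.19, so H2-M3, called at 0.28 and 0.30 there, is to be read relative to these. Members called higher were 7 to 8 with single libraries left out. With 5800698 to 6462146 counts, the 3 controls limit precision most for H2-Q7, with as few as 32 counts. The product of diet and batch could not be fitted without control library 3 or without deficient libraries 5 to 7. No paired analysis was possible because replicate numbers follow accession order and pair no libraries.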
